A study of Rattus with 12 samples.

Results

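Immediate early genes are switched on within minutes of a stimulus, before any new protein has to be made. In neurons, calcium entering through synaptic receptors and voltage-gated channels acts through kinases and the transcription factors CREB, SRF and MEF2 on their promoters, and their transcripts are widely used as a record of recent activity. Their mRNAs are short-lived, so a level measured after days of drug exposure describes the state of the culture shortly before the RNA was taken. Opioid receptors couple to inhibitory G proteins, which lower cyclic AMP and dampen neuronal firing.

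The 10 genes described here were taken by symbol from the count table, out of 17337 genes listed. They are Arc, the Fos and Jun family members Fos, Fosb and Junb, the zinc finger factors Egr1, Egr2, Egr3 and Egr4, the neuronal factor Npas4, and the orphan nuclear receptor Nr4a1. All 10 were found once in the table, and all 10 passed the filter on low counts, which kept 12271 genes.

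RNA was sequenced from 12 co-cultures of primary Sprague Dawley rat cortical neurons, astrocytes and oligodendrocyte precursor cells, in the fourth week in vitro. They had spent 4 days untreated, with 0.01 μM (low dose) or with 10 μM fentanyl (high dose), an agonist of the mu opioid receptor, with 4 cultures per condition. The untreated cultures were A, G, M and P, the low dose cultures B, H, N and Q, and the high dose cultures C, I, O and R. All cultures held the same 3 seeded cell types in wells of a tissue culture plate, apart from those recorded electrically, and the RNA is that of the whole mixture, so fewer cells of a type and less RNA per cell cannot be told apart. The letters run consecutively across the doses, as A-B-C and G-H-I, and then M-N-O and P-Q-R. These are called letter sets below, and the sources name them neither as a batch nor as a pairing.

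Total counts ranged from 12059872 to 24813893 per culture. Neuron markers gave a score (mean of log2(CPM + 1), where CPM is a gene's count scaled to the library size) between 7.31 and 7.92 in 11 cultures, and of 3.59 in untreated culture G. The defining neuronal gene Rbfox3 had 20 counts in G and between 714 and 2019 in the others. G thus went against its label as a culture that holds neurons. Results for the immediate early genes that rest on it are given with and without it. The letter sets also differed in glia. Oligodendrocyte marker scores were between 6.85 and 7.48 in A-B-C and between 7.88 and 9.93 in the other 9 cultures. Microglia scores were between 1.51 and 1.67 in P-Q-R and between 3.61 and 5.63 in the other 9 cultures. Fibroblast scores were 8.22 in G, 7.42 in N and between 3.19 and 5.14 in the rest. The part of these differences in the results below was not tested.

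Arc, the cytoskeletal and capsid-forming protein that removes AMPA receptors from synapses, differed more between letter sets than between doses. Its level was 1.65, 1.10, 37.5 and 26.5 CPM in untreated cultures A, G, M and P. In the low dose cultures B, H, N and Q it was 3.54, 169.7, 47.6 and 39.5 CPM, and in the high dose cultures C, I, O and R it was 2.13, 149.9, 22.0 and 12.1 CPM. The 3 cultures of A-B-C and culture G were low at every dose, H and I were high, and the 3 groups overlapped. The means were 16.7 ± 18.3, 65.1 ± 72.3 and 46.5 ± 69.4 CPM (SD, n = 4) in the untreated, low dose and high dose cultures. The letter set A-B-C, in which Arc was low, had neuron scores between 7.72 and 7.84, within the range of the other cultures with neurons.

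Npas4, a bHLH-PAS factor induced in neurons by calcium entry and known for recruiting inhibitory synapses, showed the same split. Its level was 0.236, 0.0649, 16.3 and 13.4 CPM in A, G, M and P, from 4, 1, 237 and 161 counts. It was 0.539, 79.9, 14.9 and 18.0 CPM in B, H, N and Q, and 0.237, 81.4, 3.09 and 3.06 CPM in C, I, O and R. The 4 cultures A, B, C and G held 7 counts or fewer, and O and R were each below the untreated and low dose cultures of their own letter sets. The SD exceeded the mean at each dose, at 7.49 ± 8.55, 28.3 ± 35.2 and 21.9 ± 39.6 CPM (n = 4).

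**Figure D1:**
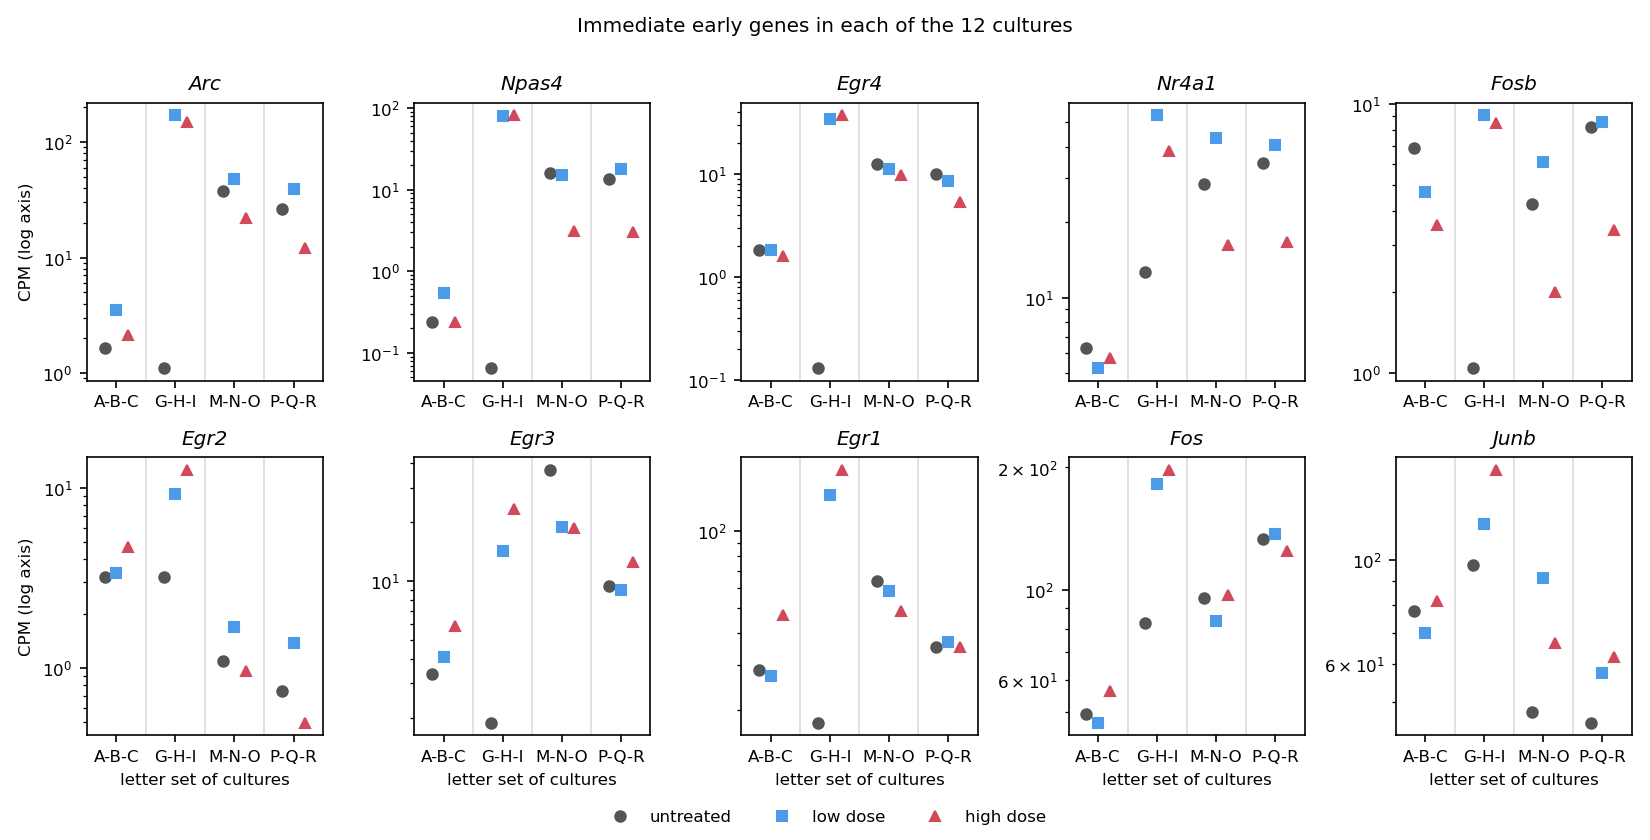
Level of each immediate early gene in CPM (log axis) in each of the 12 cultures, with the letter set on the horizontal axis and the dose as colour and shape. In the A-B-C cultures Arc lay between 1.65 and 3.54 CPM at all doses, while low dose culture H and high dose culture I held the highest levels of 7 of the 10 genes.

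Egr4, the zinc finger factor first described as NGFI-C, was at 1.83, 0.130, 12.5 and 10.1 CPM in A, G, M and P, at 1.85, 34.5, 11.2 and 8.67 CPM in B, H, N and Q, and at 1.60, 37.4, 9.73 and 5.38 CPM in C, I, O and R. G held 2 counts of Egr4, under the floor of 3 counts that this depth can show (counting error only), as was its 1 count of Npas4, and A, B and C lay close together between 1.60 and 1.85 CPM. H and I were the highest cultures and A, B, C and G the lowest, as for Arc and Npas4, and the doses overlapped.

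Egr1, a broadly expressed activity-dependent factor also known as Zif268, was at 28.7, 17.9, 63.7 and 35.2 CPM in A, G, M and P. In B, H, N and Q it was at 27.2, 138.0, 58.3 and 37.0 CPM, and in C, I, O and R at 47.0, 172.2, 48.9 and 35.4 CPM. Outside G-H-I its levels lay between 27.2 and 63.7 CPM.

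Egr3, known for its role in muscle spindle development, was at 3.36, 1.88, 37.0 and 9.48 CPM in A, G, M and P. It was at 4.08, 14.3, 18.9 and 9.01 CPM in B, H, N and Q, and at 5.86, 23.3, 18.7 and 12.4 CPM in C, I, O and R. It was the only one of the 4 Egr genes whose highest culture was untreated, and that culture was M.

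Egr2, also known as Krox20 and needed for myelination by Schwann cells, was at 3.19, 3.18, 1.10 and 0.748 CPM in A, G, M and P. It was at 3.39, 9.20, 1.70 and 1.38 CPM in B, H, N and Q, and at 4.68, 12.5, 0.967 and 0.496 CPM in C, I, O and R. Its letter sets stood in another order than those of Arc, since the 6 cultures of the M-N-O and the P-Q-R set were the lowest.

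Nr4a1, also known as Nur77, was at 6.31, 12.6, 28.3 and 34.3 CPM in A, G, M and P, at 5.23, 53.2, 43.5 and 40.7 CPM in B, H, N and Q, and at 5.75, 38.3, 16.2 and 16.6 CPM in C, I, O and R. The low dose culture was the highest of its set everywhere but in A-B-C, which was the lowest set at all doses. G, which was almost without Npas4 and Egr4, was above all 3 cultures of A-B-C for Nr4a1.

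Fos, the AP-1 subunit induced in most cell types, was at 49.3, 82.8, 95.4 and 133.4 CPM in A, G, M and P. It was at 46.9, 181.9, 83.9 and 137.5 CPM in B, H, N and Q, and at 56.4, 197.1, 97.0 and 124.3 CPM in C, I, O and R. G, with few neuronal transcripts, lay between A-B-C and the other cultures for this gene.

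Fosb, whose splice form ΔFosB accumulates with long drug exposure, was at 6.85, 1.04, 4.25 and 8.23 CPM in A, G, M and P. It was at 4.69, 9.08, 6.07 and 8.60 CPM in B, H, N and Q, and at 3.55, 8.52, 2.0 and 3.39 CPM in C, I, O and R. The high dose culture was the lowest of its letter set in all sets but G-H-I, although the groups overlapped. The means were 5.09 ± 3.17, 7.11 ± 2.08 and 4.37 ± 2.86 CPM (SD, n = 4) in the untreated, low dose and high dose cultures. Counts per gene symbol do not tell ΔFosB from the full-length form.

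Junb, the AP-1 partner found in many cell types, was at 77.9, 97.6, 47.6 and 45.1 CPM in A, G, M and P. It was at 69.8, 118.9, 91.6 and 57.6 CPM in B, H, N and Q, and at 81.6, 154.8, 66.5 and 62.1 CPM in C, I, O and R. G held the highest Junb level of the untreated cultures. In the current rat assembly (GRCr8), Arc and Fosb each overlap an annotated long noncoding RNA. The library kit does not mark strand, so reads of the 2 transcripts cannot be told apart.

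Cultures H and I exceeded all 10 other cultures in 7 of the 10 genes (Arc, Fos, Junb, Egr1, Egr2, Egr4 and Npas4), against 3.47% of all genes tested. They also held the 2 highest neuron marker scores, at 7.86 and 7.92, followed by A at 7.84. The 2 highest oligodendrocyte marker scores were theirs too, at 9.93 and 9.68, followed by M at 9.63. A-B-C lay below the other 8 cultures, G aside, in 6 genes (Arc, Fos, Egr3, Egr4, Npas4 and Nr4a1), against 19.3% of all genes. A-B-C were also the lowest 3 cultures in the oligodendrocyte score and in the oligodendrocyte precursor score, the latter between 5.55 and 6.11. Both patterns were noticed in the data and are descriptions of these cultures, and the part of these markers in them was not tested.

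**Figure D2:**
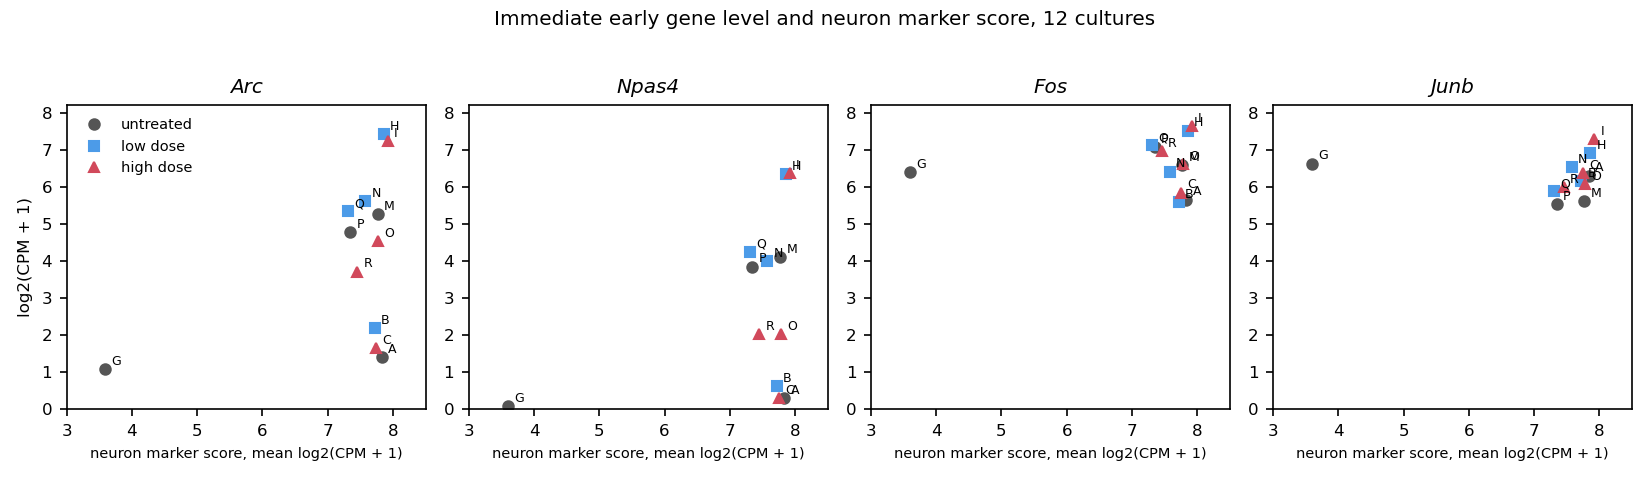
Level of Arc, Npas4, Fos and Junb, log2(CPM + 1), against the neuron marker score of the same culture, one point per culture, coloured by dose and labelled by letter. Culture G sits alone at a score of 3.59, while the other 11 lie between 7.31 and 7.92 and still differ widely in Arc and Npas4.

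Low dose was compared with untreated to ask whether 4 days of fentanyl at the smaller dose moved these transcripts. In edgeR's quasi-likelihood test with 1 factor of unwanted variation and Benjamini-Hochberg adjustment over 12271 genes, no member was called, where a call needs an adjusted p under 0.05 together with a log2 change beyond 0.5. The share called among all genes was 0% too. At an unadjusted p under 0.05 there were 91 genes, or 0.742%, and no member was among them. DESeq2 also called 0 genes in this comparison.

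The fitted changes were large for the most variable genes, with errors of the same order. Arc had a log2 fold change of 1.92 (SE 1.45) and Npas4 of 1.88 (SE 1.79), both with an adjusted p of 1.0 in the edgeR test. The others ran from -0.16 for Egr3 to 1.24 for Egr4. Of the 10 genes, 9 had a fold change above 0, against 53.4% of all genes, and their median was 0.78 against 0.01. Within letter sets, Arc and Egr2 were higher at the low dose in all 4, against 4.06% of all genes.

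All 10 genes were higher in H than in G, where neuron markers were low, against 49.3% of all genes. Of the 10, 5 were higher in B than in A (49.7% of all genes), 5 in N than in M (51% of all genes) and 8 in Q than in P (50.2% of all genes). Without G alone, in the fit with the factor, all genes but Egr3 stayed above 0, with Arc at 1.86, Npas4 at 1.89 and Egr4 at 0.99. Without G and with the letter sets as a block in place of the factor, only Arc, Junb, Egr2 and Nr4a1 were above 0. Npas4 was at -0.16 and Egr4 at -0.23. That fit called 0 genes. No member had an unadjusted p under 0.05 in it, against 7.54% of 12337 genes.

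High dose was compared with untreated in the same fit. No member was called, and the share of all genes called was 0%. At an unadjusted p under 0.05 there were 146 genes, or 1.19%, again with no member, and DESeq2 called 3 genes, none of them a member. Npas4 had a log2 fold change of 1.63 (SE 1.77), Arc of 1.51 (SE 1.43) and Junb of 0.60 (SE 0.34), with an adjusted p of 1.0 in edgeR for each. Of the 10 genes 8 were above 0, against 50.8% of all genes, and Nr4a1 at -0.11 and Fosb at -0.27 were below it.

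The direction of Npas4, Arc and Egr4 depended on the model, and within the block for Arc and Egr4 also on culture G. Egr3 and Nr4a1 changed sign in some fits too. Egr3 was at -0.0092 with the letter sets as a block and G left out, and Nr4a1 at 0.26 with 2 factors. Without G alone, in the fit with the factor, all genes but Fosb and Egr3 were above 0. Npas4 stayed at 1.72, Arc at 1.51 and Egr4 at 1.01. With letter sets as a block in place of the factor and G kept, they were at -0.35, 0.40 and 0.35. With the block and without G, only Fos, Junb, Egr1 and Egr2 were above 0. Npas4 was at -1.52 (SE 0.51) there, with an adjusted p of 0.392 in edgeR, Arc at -0.55 and Egr4 at -0.45. In this last fit 4 members (Npas4, Fosb, Nr4a1 and Egr4) were lower at an unadjusted p under 0.05, against 3.67% of all genes, and 15 of 12337 genes were called (0.122%), with no member among them. Leaving out culture I alone, in the fit with the factor, moved Npas4 to -1.73 and Arc to -0.37.

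**Figure D3:**
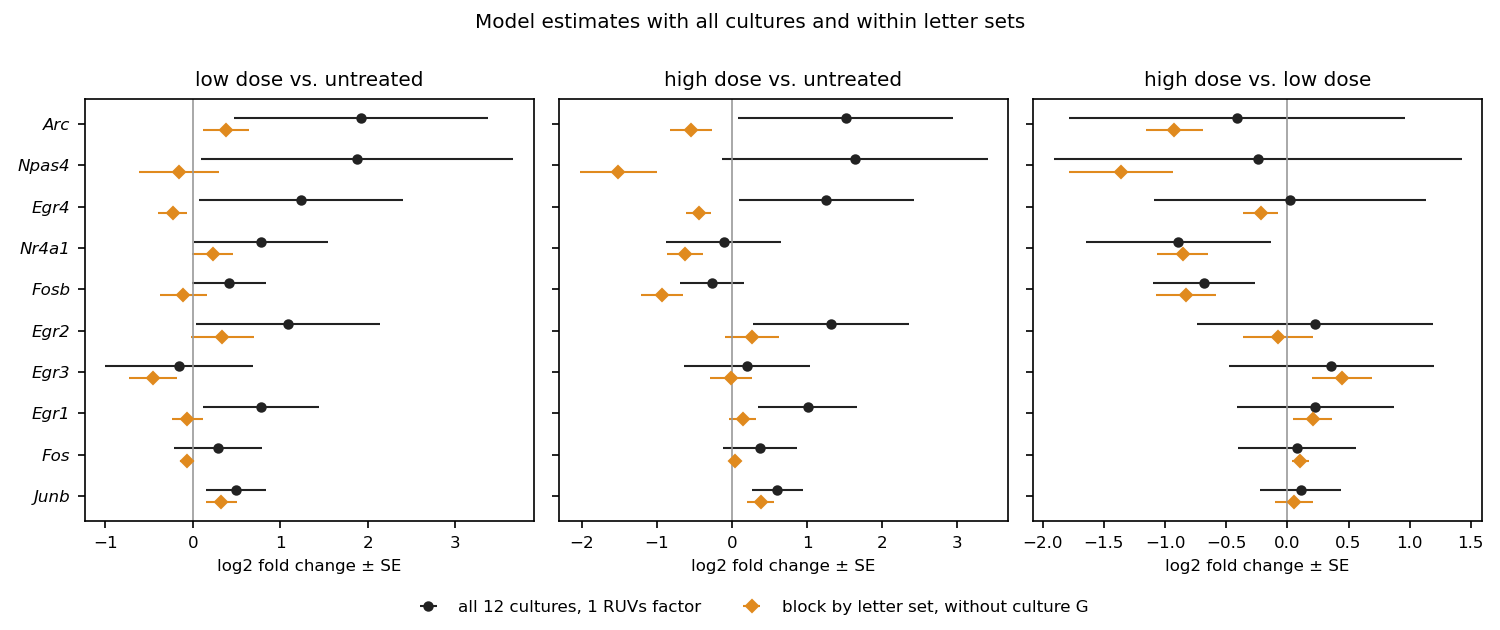
Log2 fold change of each gene in the 3 comparisons (axis in log2 units), with the fit of all 12 cultures beside the fit with letter sets as a block and culture G left out, and bars of 1 standard error. High dose against untreated puts Npas4 at 1.63 in the fit with the factor and at -1.52 in the fit that has the block and lacks G.

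Within letter sets the high dose culture was below the untreated one in 8 of 10 genes for M-N-O and 7 of 10 for P-Q-R, against 49.5% and 50.1% of all genes. In A-B-C it was below in 3 (49.3% of all genes), and in G-H-I in none (51.1% of all genes). Junb was higher at the high dose in all 4 sets, against 5.22% of all genes.

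High dose was compared with low dose, where no culture lacks neuron markers. With the factor no member was called (0% of all genes), and 144 genes, or 1.17%, had an unadjusted p under 0.05, none of them a member. DESeq2 called 1 gene, which was not a member. The lowest fold changes were those of Nr4a1 at -0.89 (SE 0.75) and Fosb at -0.68 (SE 0.42), and Arc was at -0.41, with an adjusted p of 1.0 for each in edgeR. The highest was Egr3 at 0.36.

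Within the letter sets, the high dose level of Arc differed from the low dose one by -0.54, -0.18, -1.08 and -1.63 (log2(CPM + 1), with the sets in alphabetical order). Fosb differed by -0.32, -0.08, -1.24 and -1.13. These 2 genes were lower at the high dose in all 4 sets, against 11.1% of all genes. Npas4 differed by -0.31, 0.03, -1.96 and -2.23, and Nr4a1 by 0.11, -0.46, -1.37 and -1.24, so both were lower by more than 1 in the last 2 sets and differed less in the first 2. Members lower at the high dose numbered 4, 3, 9 and 8 of 10 in the 4 sets, against 48.8%, 50.3%, 50.5% and 49.9% of all genes.

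Cell type markers moved in these pairs and in those of the other letter sets. From N to O, neuron markers were higher in 13 of 14, astrocyte markers lower in 8 of 9, oligodendrocyte markers higher in 8 of 8, microglia markers lower in 10 of 10 and fibroblast markers lower in 5 of 6, with a median difference of -2.94 for the last. From Q to R, neuron markers were higher in 10 of 14 and astrocyte markers lower in 8 of 9. Oligodendrocyte, microglia and fibroblast markers were mixed there, with 3 of 8, 4 of 10 and 3 of 6 higher. From H to I, microglia markers were higher in 10 of 10, oligodendrocyte markers lower in 7 of 8 and astrocyte markers lower in 7 of 9. From B to C, microglia markers were higher in 9 of 10 and oligodendrocyte markers lower in 7 of 8. The part of these markers in the lower levels of the immediate early genes was not tested.

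With the letter sets as a block and G left out, Arc had a log2 fold change of -0.93 (SE 0.23, unadjusted p = 0.00301) and Nr4a1 of -0.85 (SE 0.21, unadjusted p = 0.00241) in edgeR. Fosb was at -0.83 (SE 0.25) and Npas4 at -1.36 (SE 0.42). The adjusted p in edgeR was 0.147, 0.141, 0.195 and 0.220 for these 4, so none was among the 14 genes called (0.113%), although 4 of 10 members had an unadjusted p under 0.05 and were lower, against 5.85% of all genes. The Egr genes, Fos and Junb ran from -0.22 to 0.45. With G, H and I all left out, an alternative chosen after seeing the data, edgeR called Npas4, with an estimate of -2.36 (SE 0.26) on the log2 scale and an adjusted p of 0.0441. That fit called 5 genes in all, or 0.0408%. H and I, which that fit drops, held the highest Npas4 levels and did not differ in it, and the adjusted p of this difference ran from 0.0441 to 1.0 over 20 alternatives.

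**Figure D4:**
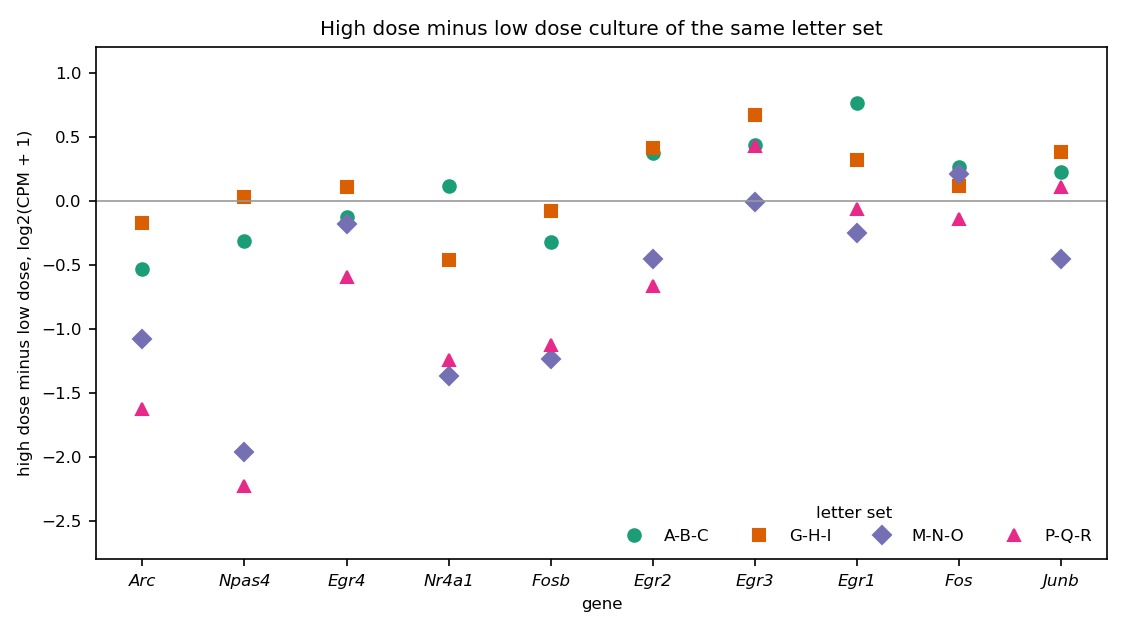
High dose minus low dose culture within each letter set, in log2(CPM + 1), for each gene, one point per letter set. Npas4 lies at -1.96 for M-N-O, at -2.23 for P-Q-R and at 0.03 for G-H-I.

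An exact two-sided permutation test over the 70 arrangements of 4 against 4 cultures can give no p below 0.0286. None of the 30 tests of these genes reached it, and no pair of groups was free of overlap, against 0.407%, 0.685% and 1.19% of all genes for low dose against untreated, high dose against untreated and high against low dose. The smallest p was 0.143, for Fosb in high against low dose, and its Benjamini-Hochberg adjusted p over all genes was 1.0. With p never below 0.0286, no gene could reach an adjusted p under 0.05 unless a large part of all genes did so together. The adjusted p of this test therefore decides nothing.

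The letter sets held more of the variation of these genes than the doses did, as a median over the 10 genes. Letter set held 50.3% and dose 11.1% of it, against 55.7% and 8.70% over all genes. Without G-H-I the shares were 84.9% and 6.05%, against 76.1% and 6.88%. Fosb was the exception there, with 22.2% between sets and 64.9% between doses. Fos, from the same family, had 97.5% between sets and 0.617% between doses without G-H-I.

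The other inducible genes did not pass the tests either. Among other inducible transcription factors 0 of 23 tested genes were called in each of the 3 comparisons, and 16, 12 and 7 had a fold change above 0 in low dose against untreated, high dose against untreated and high against low dose. Inducible signaling and synaptic genes had 0 of 21 called, and 16, 10 and 3 above 0. At an unadjusted p under 0.05 there were 0, 0 and 0 genes of the first list and 0, 0 and 2 of the second. The background for calls was 0% in each case, and the share of all genes above 0 was 53.4%, 50.8% and 47.6%.

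In the first of these lists Nr4a3, a relative of Nr4a1, had the lowest change between high dose and untreated, at -0.84 (SE 0.41), and Btg2, an antiproliferative gene, had the highest at 0.53. In the second, Dusp4, a phosphatase of MAP kinases, had the lowest change at -0.72. Arl4d had the highest at 0.27. It was between 1.82 (in G) and 24.5 CPM in the untreated cultures and between 5.45 and 33.2 CPM in the dosed ones. Each had an adjusted p of 1.0 in edgeR.

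Late activity-regulated genes, the targets that encode secreted and synaptic products, had 0 of 17 called, with 15, 9 and 6 above 0 and 0, 1 and 1 at an unadjusted p under 0.05. Ostn, a secreted factor, lay lowest at -2.49 (SE 1.71). It had no count in some dosed cultures and 0.059 CPM in its lowest untreated culture. Its highest levels were 26.3, 22.6 and 3.16 CPM in the untreated, low dose and high dose cultures. Nrgn, a calmodulin-binding neuronal protein that is also in the neuron marker list, lay highest at 1.05. It was between 7.13 (in G) and 861.3 CPM in the untreated cultures and between 416.8 and 1111.9 CPM in the dosed ones. Upstream kinases and transcription factors had 0 of 16 called and 6, 13 and 16 above 0, with 0, 0 and 2 at an unadjusted p under 0.05. Their changes between high dose and untreated ran from -0.14 for Elk1 to 0.76 for Camk2a, a neuronal kinase. Camk2a was between 9.08 (in G) and 520.6 CPM in the untreated cultures and between 144.5 and 522.6 CPM in the dosed ones. The fold changes and counts of all these other lists include culture G and are not given without it.

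The closest profile to that of Arc among all genes tested was that of another member, Npas4, with a root mean square difference of 0.44 in log2(CPM + 1), each gene centred on its own mean over 12 cultures. Outside the members those near to Arc included Mog (0.97) and Ccdc184 (1.16), and the median over all genes was 2.12. For Egr4 the nearest were Mog (0.48), Arl4d (0.55) and Mag (0.58), and those near to Npas4 included Mog and Arl4d. Mog and Mag are expressed by oligodendrocytes. For Fos the nearest were Josd2 (0.24), Hs3st1 (0.25) and Ralgds (0.25), and for Fosb RGD1562284, MGC109340 and Gpr3.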

How the data were processed

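Reads of poly(A) libraries were mapped by the authors with STAR to the rat genome (rn6), and featureCounts gave the deposited table of raw, unnormalized counts for each gene in each culture. The annotation and the strand setting are not given in the sources used here. Counts were scaled by TMM in edgeR 4.0.16 (R 4.3.3), and filterByExpr kept 12271 of 17337 genes. The study names RUVseq and edgeR, but neither the RUVseq variant nor the number of factors. Here 1 RUVs factor was chosen, and edgeR's quasi-likelihood test was run on all 12 cultures, with Benjamini-Hochberg adjustment over all kept genes. At the same thresholds the study reported differentially expressed genes in each of the 3 comparisons, where this fit called 0. Calls required an adjusted p under 0.05 with a log2 change larger than 0.5 up or down. An SE given for edgeR is the absolute log2 fold change divided by the square root of the quasi-likelihood F statistic. It is thus derived from the test and is unsteady for changes near 0. Levels are CPM, with 1 added before the log2. Nothing in the labels says that the 4 cultures of a group came from separate preparations, so p-values measure the spread between these cultures. Counts of 3 or fewer were taken as the floor, for counting error only. The genes named are the 10 members, the 3 nearest profiles of each, and the highest and lowest gene of each other list in high dose against untreated. Some nearest profiles are not reported here. The members, lists and markers were chosen with earlier results of these data known. The fit was tested on simulated counts. Alternatives were no factor, 2 factors, letter sets as a block with and without culture G, DESeq2 1.42.0, its size factors, no filter, and each culture left out. A fit without G, H and I and level differences without G were chosen after seeing the data. Both comparisons with untreated share its 4 cultures.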

Additional observations from a re-analysis of the deposited data

Results flagged for a closer look

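In a gap test for single outlying cultures, 5 of 51 groups of 4 were flagged. The test used CPM for the genes and the log2 score for the markers. Chance flags about 1 in 20 where values are normally distributed, which CPM need not be. The number of flags therefore decides nothing. High dose culture I lay far above the other high dose cultures for Arc (149.9 CPM), Egr1 (172.2 CPM) and Npas4 (81.4 CPM). Untreated culture G lay far below the other untreated cultures in its neuron marker score (3.59). Low dose culture N lay far above the other low dose cultures in its fibroblast marker score (7.42).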

How the results depend on the processing

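Of the log2 fold changes recomputed under other models, scalings and filters, 27 changed sign, 1 became a call and 212 did neither, and with 1 culture left out 36 changed sign and 324 did not. Without a factor, Egr4 in high against low dose was at -0.057, and with 2 factors Nr4a1 in high dose against untreated was at 0.26. With the letter sets as a replicate block, Egr3 in low dose against untreated was at 0.18, Npas4 in high dose against untreated at -0.35, and Egr2 and Egr4 in high against low dose at -0.19 and -0.17. With the block and G left out, low dose against untreated gave Fos -0.068, Fosb -0.11, Egr1 -0.062, Egr4 -0.23 and Npas4 -0.16, high dose against untreated gave Arc -0.55, Egr3 -0.0092, Egr4 -0.45 and Npas4 -1.52, and high against low dose gave Egr2 -0.076 and Egr4 -0.22. With the block and G, H and I left out, these were Fos -0.070, Egr1 -0.044 and Egr4 -0.15, then Arc -0.74, Egr3 -0.062, Egr4 -0.53 and Npas4 -2.14, then Junb -0.061, Egr2 -0.40 and Egr4 -0.38, and Npas4 in high against low dose was called at -2.36. The cause was not tested.

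Genes called in high dose against untreated and in high against low dose numbered 0 and 0, but 1 and 1 with 2 factors, 3 and 1 in DESeq2, 15 and 14 with the block without G, and 2 and 5 with the block without G, H and I.

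Relative to the neuron markers of the same culture, every gene's log2(CPM + 1) difference shifts by the same amount, and this shift came from culture G. The neuron score was higher by 0.98 at the low and by 1.09 at the high dose than in the untreated cultures, but by -0.036 and 0.073 with G left out (chosen after seeing the data). With G, the difference turned negative in low dose against untreated for Fos (-0.75), Fosb (-0.40), Junb (-0.63), Egr1 (-0.29), Egr2 (-0.44), Egr3 (-0.57) and Nr4a1 (-0.33), in high dose against untreated for Fos (-0.75), Junb (-0.67), Egr1 (-0.21), Egr2 (-0.63), Egr3 (-0.30), Egr4 (-0.13) and Npas4 (-0.49), and in high against low dose for Junb (-0.046). Without G, the sign in the 2 comparisons with untreated differed from that of the level with G kept for Egr3 and Npas4 only. Egr3 at the low dose was at -0.074 (-0.11 as a level) and Npas4 at the high dose at -0.15 (-0.072 as a level). Fosb and Nr4a1 at the high dose were below 0 as levels with G kept (-0.11 and -0.090), so they count as unchanged in sign. Fos was at 0.25 in both comparisons.

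With each culture left out in turn, low dose against untreated ran from -0.78 (without N) to 1.27 (without M) for Egr3 and from -0.038 (without H) to 0.72 for Fos. High dose against untreated ran from -0.37 (without I) to 2.51 for Arc, from -1.73 (without I) to 2.80 for Npas4, from -0.089 (without G) to 1.64 for Egr3, from -0.70 to 0.43 for Nr4a1 and from -0.89 to 0.0048 for Fosb. High against low dose ran from -2.31 (without I) to 0.55 (without H) for Arc, from -3.62 to 0.90 for Npas4, from -1.21 to 0.81 for Egr4, from -0.95 to 1.10 for Egr2, from -0.57 to 0.88 for Egr1, from -0.28 to 0.41 for Fos and from -0.26 to 0.33 for Junb, with the lowest value without I and the highest without H in each. No culture left out gave a call. Low counts limit Npas4 in A, B, C and G, with 7 counts or fewer, and Egr4 in G, with 2 counts. Egr2 was low too, with between 15 and 26 counts in M-N-O and between 9 and 20 in P-Q-R. In G, Arc held 17 counts and Fosb 16.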
